A study of Arabidopsis thaliana with 24 samples.

Results

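Transcripts of the chloroplast genome were followed in seedlings of the clock mutant *rve8-1* and of its wild type, Col. They were taken as all array rows whose locus identifier begins with ATCG, the prefix of chloroplast loci, and that exceeded a log2 level of 4.5 on at least 4 of the 12 arrays of either genotype. Of 67 such rows, 64 passed, of which 63 passed in both genotypes, out of 19473 rows that passed among 30237 in all. The mutant has a T-DNA inserted in *RVE8*, a gene for a myb-like transcription factor of the circadian clock, and Col is the Columbia accession without it. Both were whole seedlings grown on sucrose medium in cycles of equal light and dark for 7 days and then kept in continuous light, and each array held RNA of 1 harvest of pooled seedlings. Seedlings were collected at intervals of 4 h between 72 and 116 h of continuous light, which gave 12 arrays of *rve8-1* and 12 of Col, and the array of day 5 at each of the 6 circadian times (0 to 20 h) served as the replicate of the array of day 4. The replicates are thus separate harvests a day apart, and a p-value measures the spread between them. It does not cover differences between separately grown sets of seedlings. With 1 time course of each genotype, such differences cannot be told apart from genotype.

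Chloroplasts descend from cyanobacteria and keep a small genome of their own, present in many copies in each cell. It encodes core subunits of photosystems I and II, of the cytochrome b6f complex, of the ATP synthase and of the NDH complex, the large subunit of Rubisco, part of the chloroplast ribosome, and the core of a bacterial-type RNA polymerase called PEP. The nucleus supplies the remaining subunits, a phage-type RNA polymerase, and the sigma factors that guide PEP to its promoters, and the sigma factor gene *SIG5* is known as a link by which the nuclear clock reaches chloroplast transcription. The RefSeq annotation of the *Arabidopsis* chloroplast listed 129 entries, among them 15 for photosystem II, 5 for photosystem I, 6 for cytochrome b6f, 6 for the ATP synthase, 12 for NDH, 25 for ribosomal proteins, 4 for the RNA polymerase and 37 for transfer RNAs. None of the 67 ATCG identifiers of the array could be matched to these entries by identifier, since the annotation lists them under other tags. The loci are therefore described by identifier, and no function is assigned to any of them.

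The targeted gene was checked first. *RVE8* lay between 3.17 and 4.70 on the log2 scale on the *rve8-1* arrays and between 4.28 and 7.37 on the Col arrays, with a level difference of -2.14 (limma, adjusted p = 6.82e-10). The tissue was checked with defining markers. The green tissue genes *LHCA1* and *RBCS1A*, for a light-harvesting protein and a small subunit of Rubisco, averaged 12.8 and 13.8 in *rve8-1* and 12.8 and 13.7 in Col. A further green tissue gene, *LHCB2.1*, averaged 11.2 in each genotype. The root genes *BGLU23*, *EXPA7* and *COBL9* averaged 11.6, 5.68 and 5.03 in *rve8-1* and 11.7, 5.67 and 4.85 in Col. The seed gene *CRA1* averaged 6.05 in *rve8-1* and 5.80 in Col. None of the 3 green, 3 root and 1 seed marker tested differed in level at an adjusted p under 0.05 (adjusted p of 0.176 or above each). The 25th percentile of all rows lay between 3.76 and 4.1 on the *rve8-1* arrays and between 3.76 and 4.17 on the Col arrays. Within each genotype the median of the chloroplast loci tended to be lower on arrays where this percentile was higher. Pearson r was -0.46 in *rve8-1* and -0.43 in Col, a description of 12 arrays each. With the percentile as a covariate, the median level difference of the loci was -0.44, and 61 of 64 were below 0.

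The chloroplast loci were read as a set at lower levels in *rve8-1* than in Col. Of the 64 loci, 24 were lower in *rve8-1* at an adjusted p under 0.05 and none was higher, where 0.657% of all tested rows were called lower and 0.416% higher (1.07% in either direction). At an unadjusted p under 0.05, 49 of the 64 were called, against 20.1% of all tested rows. The level difference, the mean over the 6 circadian times in *rve8-1* minus that in Col, came to a median of -0.42 (log2) over the 64 loci (quartiles, -0.73 and -0.23; median standard error, 0.125), against -0.0007 over all tested rows. It was below 0 for 61 of 64 loci, against 50.2% of all tested rows and 68.3% of those with a mean level above 8. The loci moved together from array to array, so these are not 61 separate observations. Over all 67 ATCG rows, those that missed the level filter included, the median was -0.40 and 63 were below 0. The seedlings are mixtures of cell types, so fewer green cells or plastids and less chloroplast RNA in each cannot be told apart here. Labelling primed at poly(A) tails, so a difference in the tailing of these RNAs cannot be told apart from them either.

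**Figure D1:**
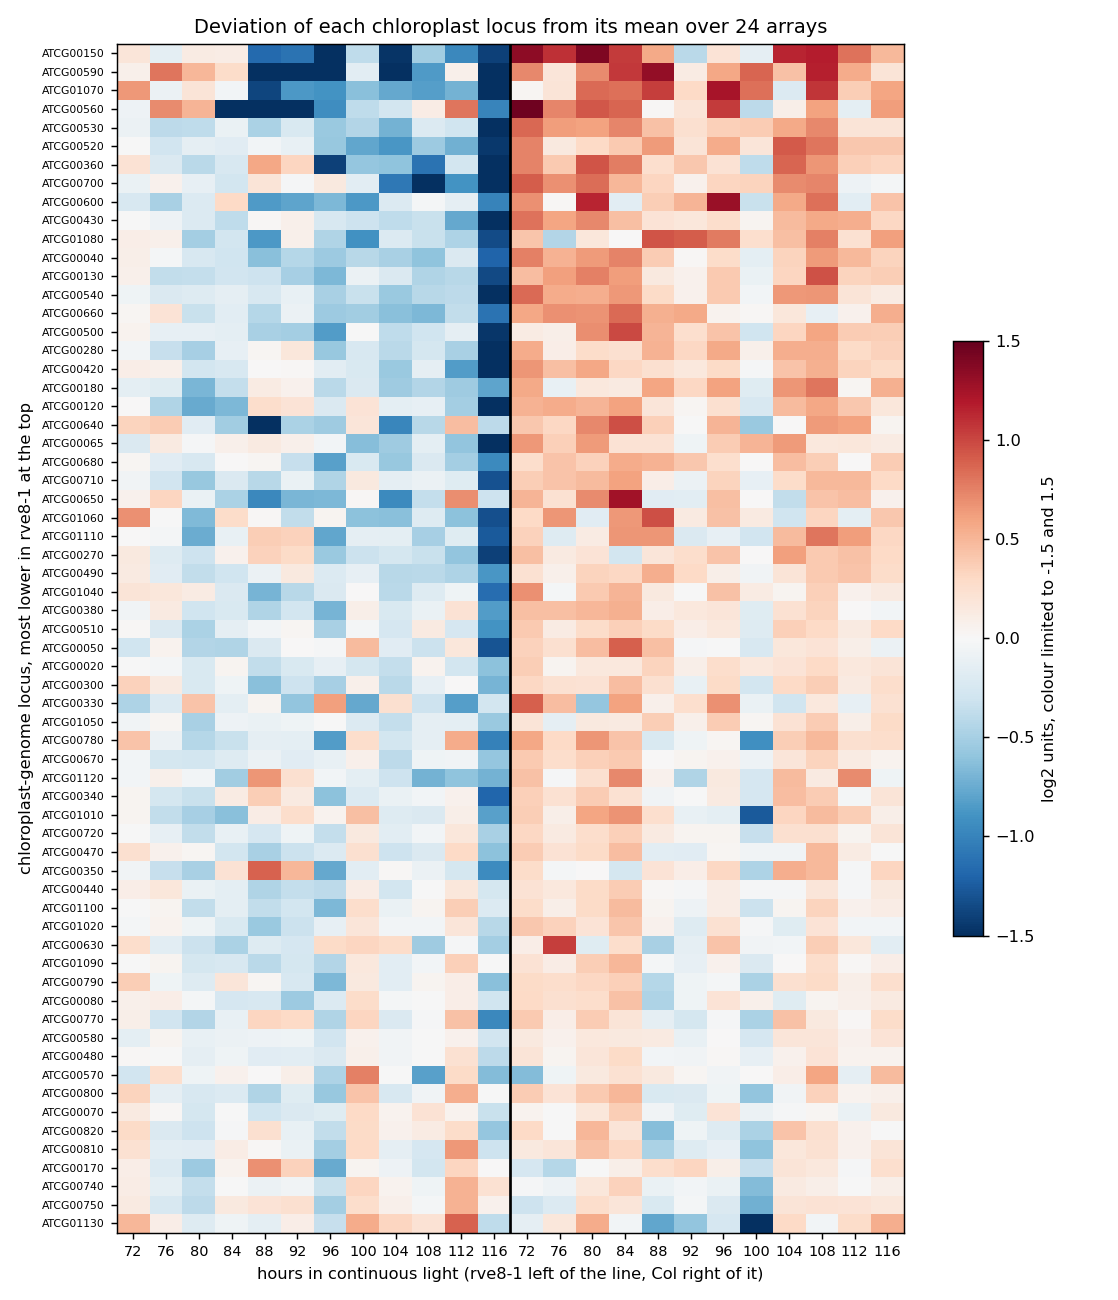
Each row is 1 of 64 chloroplast loci and each column 1 array, ordered by hours in continuous light, with *rve8-1* left of the line and Col right of it; the colour is the deviation from the row's mean over 24 arrays on the log2 scale. Most rows are blue on the left and red on the right, the bottom 3 rows are not, and the *rve8-1* array of 116 h is the bluest column.

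The single arrays show how evenly this difference was spread. The median of the 64 loci on the *rve8-1* arrays, from 72 h to 116 h, was 8.81, 8.82, 8.49, 8.59, 8.64, 8.71, 8.20, 8.85, 8.35, 8.50, 8.54 and 7.61. On the Col arrays it was 9.43, 9.06, 9.30, 9.42, 8.82, 8.81, 9.0, 8.56, 9.10, 9.38, 9.12 and 9.12 in the same order. The genotypes overlapped, since the Col array of 100 h lay below 6 of the *rve8-1* arrays, and the *rve8-1* array of 116 h lay below all others. At 11 of the 12 harvests the median difference over loci was below 0, between -1.20 at 116 h and -0.14 at 92 h, and at 100 h it was 0.15, with 25 of 64 loci lower in *rve8-1* there. At 80, 96 and 116 h, 63 of the 64 loci were lower in *rve8-1*. The array of 116 h was the lowest of all 24 for 41 of the 64 loci, and the Col array of 84 h the highest for 20. Without the *rve8-1* array of 116 h the median difference was -0.38, with 61 of 64 loci below 0 and 23 called lower. Over the 24 fits with 1 array left out the count called lower ran from 14, without the Col array of 80 h, to 34, without the *rve8-1* array of 92 h, and it was 15 without the *rve8-1* array of 100 h or 108 h.

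**Figure D2:**
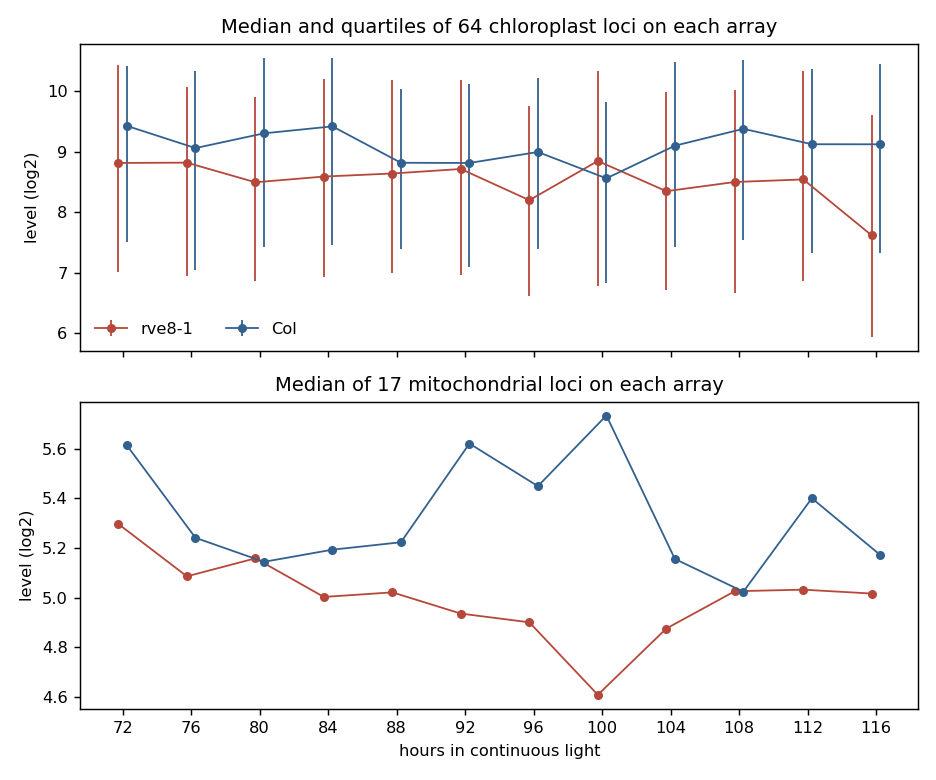
The upper panel gives the median (points) and quartiles (bars) of the log2 levels of 64 chloroplast loci on each array against hours in continuous light, and the lower panel the median of 17 mitochondrial loci. The chloroplast median of *rve8-1* lies below that of Col at every harvest except 100 h, where it is 8.85 in *rve8-1* and 8.56 in Col.

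The 2 days could be read apart. On day 4 the difference had a median of -0.40 with 59 of 64 loci below 0, and on day 5 a median of -0.48 with 60 below 0. Over loci, the differences of the 2 days had a Spearman rho of 0.64, which is a description of 64 loci that share their arrays. With 6 arrays per genotype and no replicate of a circadian time, day 4 alone called 0 loci and day 5 alone called 1. The days were also compared with each other. Day 5 minus day 4 had a median of -0.12 over the loci, 54 of 64 were below 0 (47.3% of all tested rows), and 0 were called at an adjusted p under 0.05 (0.00514% of all tested rows), with 11 at an unadjusted p under 0.05 (6.5% of all tested rows).

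The strongest evidence by p lay with ATCG00020, whose levels hardly varied among arrays. It lay between 8.78 and 9.45 (median 9.16) on the *rve8-1* arrays and between 9.44 and 9.76 (median 9.57) on the Col arrays. In *rve8-1* 11 of 12 arrays were below every Col array. It averaged 9.19 ± 0.20 in *rve8-1* and 9.6 ± 0.10 in Col (SD, n = 12 each), a difference of -0.40 ± 0.05 (SE; adjusted p = 0.00169). ATCG00040 had a median of 8.34 (range, 7.57 to 8.86) on the *rve8-1* arrays and of 9.20 (8.62 to 9.52) on the Col arrays, and ATCG00130 one of 6.92 (5.93 to 7.36) in *rve8-1* and of 7.66 (7.19 to 8.23) in Col. For each of these loci 10 of 12 *rve8-1* arrays were below every Col array. Their differences were -0.83 ± 0.12 (adjusted p = 0.0035) and -0.82 ± 0.12 (adjusted p = 0.00365).

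At 3 of the 64 loci the genotypes did not overlap, a separation shown by 7 of 19473 tested rows in this direction (0.0359%, and 0.0103% with *rve8-1* higher). ATCG00530 lay between 5.63 and 7.58 in *rve8-1* and between 7.86 and 8.53 in Col, ATCG00520 between 5.22 and 6.67 in *rve8-1* and between 6.82 and 7.59 in Col, and ATCG00540 between 7.75 and 9.46 in *rve8-1* and between 9.48 and 10.37 in Col. Their differences were -0.98 ± 0.15, -0.95 ± 0.15 and -0.82 ± 0.15 (adjusted p of 0.00614, 0.0088 and 0.0135). The lowest value of each came from the *rve8-1* array of 116 h, and all 3 were lower in *rve8-1* at each of the 12 harvests. That held for 14 of the 64 loci, against 0.334% of all tested rows, and 0 were higher at all 12 (0.236% of all tested rows). In addition, 39 of the 64 were lower in *rve8-1* at 10 or more harvests. The number of harvests at which a row was lower had a median of 10 over the loci (quartiles, 9 and 11). Over all tested rows that median was 6 (quartiles, 4 and 7). The loci share their arrays, so these counts are a description.

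**Figure D3:**
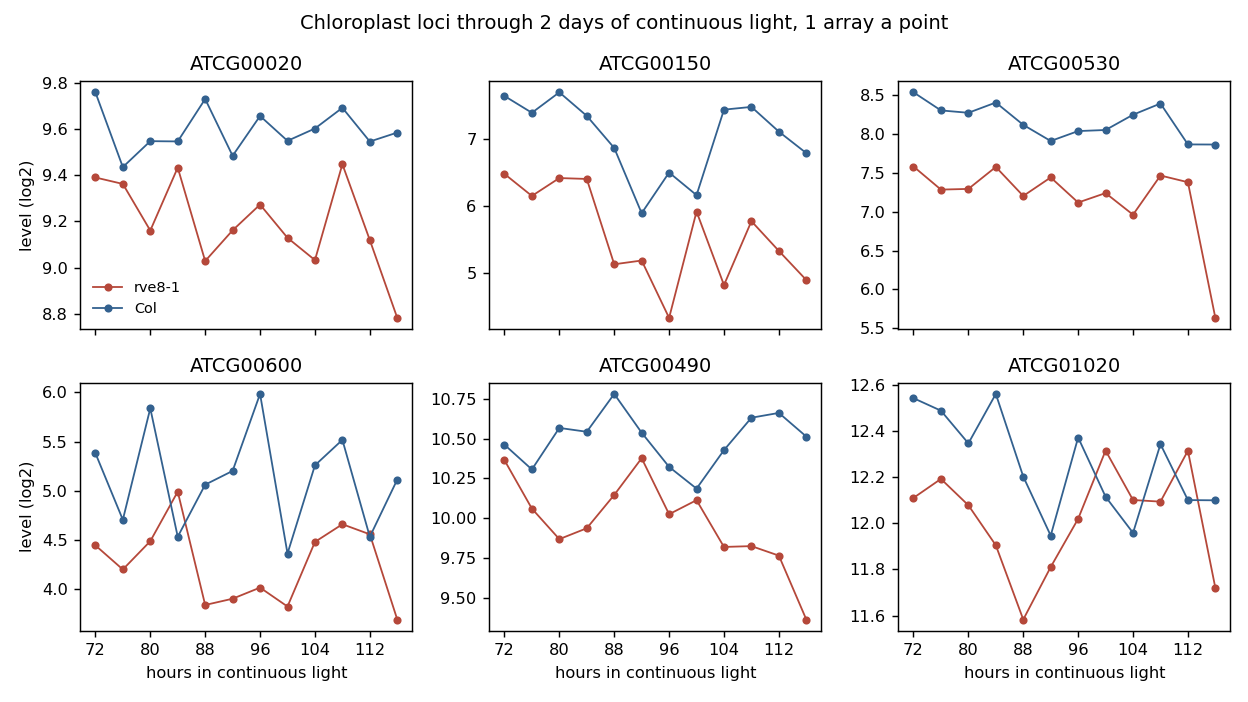
Each panel gives the log2 level of 1 chloroplast locus on every array against hours in continuous light, *rve8-1* in red and Col in blue. ATCG00020, ATCG00150, ATCG00530 and ATCG00490 are lower in *rve8-1* at all 12 harvests, ATCG00600 at 10 and ATCG01020, the locus of highest level, at 9.

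The largest differences were found at loci of low and variable level. ATCG00150 had a median of 5.56 (range, 4.34 to 6.48) on the *rve8-1* arrays and of 7.23 (5.90 to 7.70) on the Col arrays, and its difference was -1.46 ± 0.25 (adjusted p = 0.0115). In *rve8-1* its first 4 harvests lay between 6.15 and 6.48, and the 8 later ones between 4.34 and 5.92. ATCG00590 had a median of 6.22 (4.81 to 7.54) in *rve8-1* and of 7.37 (6.85 to 8.04) in Col, and ATCG01070 one of 4.6 (3.58 to 5.99) in *rve8-1* and of 6.05 (5.14 to 6.58) in Col. Their differences were -1.32 ± 0.27 (adjusted p = 0.0329) and -1.19 ± 0.22 (adjusted p = 0.0188). With 1 array left out at a time, the difference of ATCG00590 lay between -1.49 and -1.15 and its call was lost in 15 of the 24 fits (highest adjusted p, 0.083). That of ATCG01070 lay between -1.32 and -1.06, and its call was lost without the Col array of 80 h or the *rve8-1* array of 100 h (highest adjusted p, 0.0505). ATCG00560, with a difference of -1.0 ± 0.31, did not pass the test (adjusted p = 0.116).

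The locus of lowest level, ATCG00600, passed the filter through Col only, with 3 *rve8-1* arrays and 11 Col arrays over 4.5, so that some difference followed from its selection. It had a median of 4.33 (range, 3.70 to 4.99) in *rve8-1* and of 5.16 (4.36 to 5.98) in Col, and its difference of -0.86 ± 0.13 (adjusted p = 0.00614) is given as a description. Just outside the filter, ATCG00190 averaged 3.96 in *rve8-1* and 4.15 in Col, ATCG00730 averaged 4.1 in *rve8-1* and 4.04 in Col, and ATCG00760 averaged 3.5 in *rve8-1* and 3.78 in Col, and no more than 2 arrays of a genotype exceeded 4.5 for any of them. With the 63 loci that passed in both genotypes, 23 were called lower and the median difference was -0.42.

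Other loci called lower lay across the range of levels. ATCG00490, at a median of 9.98 (range, 9.36 to 10.38) in *rve8-1* and of 10.52 (10.19 to 10.78) in Col, had a difference of -0.52 ± 0.09 (adjusted p = 0.0133), and 10 of its *rve8-1* arrays were below every Col array. ATCG00180, ATCG00500 and ATCG00680 had medians of 6.64, 6.74 and 5.78 in *rve8-1* and of 7.44, 7.34 and 6.38 in Col. Their differences were -0.68, -0.74 and -0.66 (adjusted p of 0.0111, 0.0088 and 0.00948). The remaining 13 called loci were ATCG00280, ATCG00380, ATCG00510, ATCG00660, ATCG00670, ATCG00700, ATCG00710, ATCG01040, ATCG01050, ATCG01080 and the loci ATCG00540, ATCG00590 and ATCG01070 given above. The calls on ATCG00020, ATCG00040, ATCG00130, ATCG00150, ATCG00180, ATCG00490, ATCG00500, ATCG00520, ATCG00530, ATCG00540 and ATCG00680 held in all 24 fits with 1 array left out.

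The median difference was nearer 0 among loci of higher level. Among the 21 loci of lowest mean level (4.69 to 7.32) the median difference was -0.67 and 11 were called lower. Among the next 22 (7.49 to 9.52) it was -0.62 with 8 called, and among the 21 of highest level (9.52 to 12.14) it was -0.24 with 5 called. Over the 64 loci the difference and the mean level had a Spearman rho of 0.52, a description across loci that share their arrays. The 3336 tested rows of any genome with a mean above 8 had a median difference of -0.05, and 68.3% of them were below 0. The locus of highest level, ATCG01020, had a median of 12.09 (range, 11.58 to 12.31) in *rve8-1* and of 12.27 (11.95 to 12.56) in Col, and its difference of -0.24 ± 0.08 did not pass (adjusted p = 0.136).

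**Figure D4:**
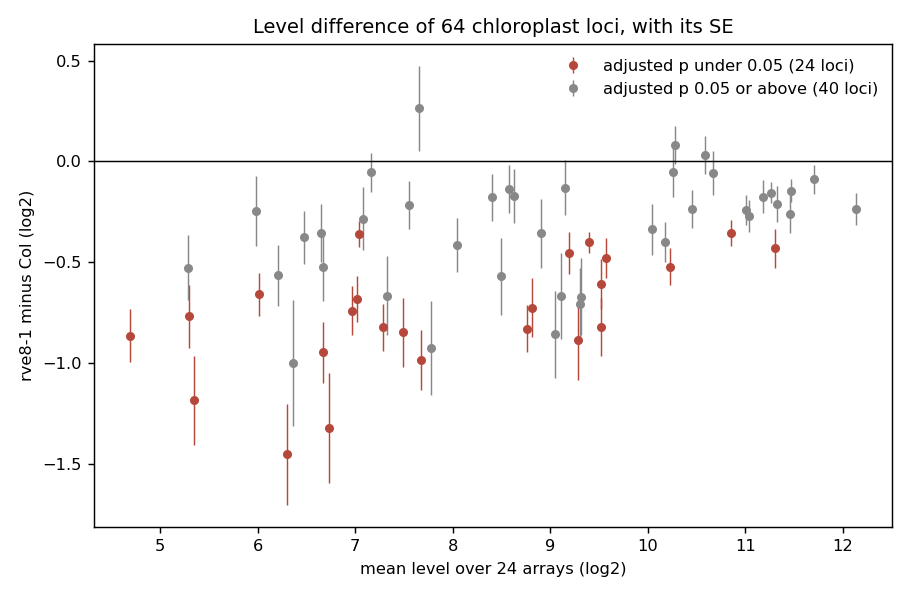
The difference between *rve8-1* and Col, with its standard error, is plotted against the mean level over 24 arrays for 64 chloroplast loci, both on the log2 scale, with the 24 loci called at an adjusted p under 0.05 in red. The called loci all lie below 0, the points furthest below 0 have mean levels under 7, and 3 points lie above 0.

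At 3 loci, singled out after their values were seen, the difference was above 0, and none of them passed the test. ATCG00740 had a median of 10.56 (range, 10.23 to 11.11) in *rve8-1* and of 10.58 (9.94 to 10.93) in Col, with a difference of 0.03 ± 0.09. ATCG00750 had a median of 10.39 (9.77 to 10.80) in *rve8-1* and of 10.35 (9.56 to 10.54) in Col, with a difference of 0.08 ± 0.10, and ATCG01130 one of 7.76 (7.27 to 8.53) in *rve8-1* and of 7.61 (6.09 to 8.21) in Col, with a difference of 0.26 ± 0.21. The genotypes overlapped at each of them. With the arrays centred on the median of the chloroplast loci, a scale on which the median locus is at 0 by construction, 6 loci were called lower and 23 higher in *rve8-1*, against 95.9% of all tested rows called in either direction. On that scale ATCG00150 had a difference of -0.87, and ATCG00740, ATCG00750 and ATCG01130 had differences of 0.61, 0.67 and 0.85.

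The loci moved together from array to array, also apart from genotype. The first principal component of the 64 loci held 60.7% of their variance over the 24 arrays, and 39.6% once the mean of each genotype was removed. The correlation between 2 loci averaged 0.34 over their deviations from the group means, against 0.017 for all tested rows, as a description of loci that share arrays and normalization. The spread within groups was wider than usual, with a median SD of 0.34 over the loci and of 0.17 over all tested rows. Of the 64 loci, 54 had a larger SD over the 12 arrays in *rve8-1* than over those in Col. The median SD over the arrays was 0.39 in *rve8-1* and 0.28 in Col for the loci. All tested rows leaned the same way, with medians of 0.23 in *rve8-1* and 0.20 in Col.

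No chloroplast locus was called for time of day in either genotype. Over the 6 circadian times the moderated F test called 0 of 64 loci in *rve8-1*, where 14.4% of all tested rows were called, and 0 of 64 in Col, where 11.8% were. At an unadjusted p under 0.05 it called 3 loci in *rve8-1* and 2 in Col, against 31.3% and 25.5% of all tested rows. A 24 h cosine called 0 of 64 in each genotype (31.0% of all tested rows in *rve8-1* and 20% in Col), and JTK_CYCLE with periods of 20 to 28 h also called 0 in each (3.09% in *rve8-1* and 7.54% in Col). That form of JTK_CYCLE adjusted p over the templates and then over all rows. With its p adjusted over the templates only, JTK_CYCLE marked ATCG01020 in *rve8-1*, and ATCG00490 and ATCG01010 in Col. In this second form 19.6% of all tested rows were marked in *rve8-1* and 21.5% in Col. The authors' lists of cycling genes by JTK_CYCLE were near the second form in length and much longer than the first. The fitted cosine amplitude had a median over the loci of 0.16 in *rve8-1* and of 0.15 in Col, against 0.18 and 0.16 over all tested rows, and the gap between the highest and lowest circadian time a median of 0.62 in *rve8-1* and of 0.55 in Col, against 0.46 and 0.44 over all tested rows.

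The smallest p for time of day in *rve8-1* belonged to ATCG00020 (limma, adjusted p = 0.093) and that in Col to ATCG00600 (limma, adjusted p = 0.119). Differences between genotypes harvested at 1 time, tested jointly over the 6 circadian times, were called for 15 of 64 loci (7.91% of all tested rows), each of which was also called lower by level. To allow for the later phase of the mutant, *rve8-1* was also compared with Col at the circadian time 4 h before. The times wrapped around, so that *rve8-1* at circadian time 0 h was set against Col at 20 h. This offset difference was called for 0 of 64 loci (0.0616% of all tested rows), with 31 at an unadjusted p under 0.05 (13.1% of all tested rows). The time course itself differed between the genotypes at 0 of 64 loci (7.11% of all tested rows). At an unadjusted p under 0.05 it differed at 1 locus (20% of all tested rows). By circadian time, from 0 to 20 h, the median difference over the loci was -0.50, -0.03, -0.62, -0.60, -0.36 and -0.60, and 61, 35, 62, 63, 48 and 61 of the 64 loci were below 0.

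These statements on time of day depended on the 2 *rve8-1* arrays of circadian time 20 h, whose medians of 8.71 at 92 h and 7.61 at 116 h lay furthest apart. Without the array of 92 h, which leaves that of 116 h alone at this time, 12 of 64 loci were called for time of day in *rve8-1* and 6 for the time course, near the shares of all tested rows in that fit (14.7% and 7.62%). In the same fit 34 loci were called for level (1.3% of all tested rows), 31 at the same harvest time (8.4%) and 12 with the offset (0.211%). Without the array of 116 h the counts were 0 for time of day in *rve8-1* (12.1%) and 0 for the time course (6.87%), and 23 for level (0.811%), 17 at the same harvest time (7.46%) and 1 with the offset (0.0462%).

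Nuclear genes for partners of these transcripts were set beside the loci, in lists too short for a count of 0 to be read as a result at a share of 1.07% of all tested rows called for level. Of 10 tested genes for photosystem I subunits and 10 for photosystem II subunits none was called for level, and their median differences were -0.03 and -0.04. The 9 tested light-harvesting genes, the 7 for cytochrome b6f, ATP synthase and NDH subunits and the 11 for proteins associated with PEP also held 0 calls, with medians of -0.0004, -0.01 and 0.04. *RBCS1A* lay between 13.57 and 13.88 in *rve8-1* and between 13.50 and 13.80 in Col. For time of day, 6 of the 9 light-harvesting genes were called in *rve8-1* and 6 in Col, and 5 of the 11 PEP-associated genes in *rve8-1* and 4 in Col, against 14.4% of all tested rows in *rve8-1* and 11.8% in Col.

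Of the 6 sigma factor genes, 0 were called for level (differences of -0.20 to 0.13), too few genes to read at a share of 1.07% of all tested rows. Time of day was called for 3 in *rve8-1* (*SIG1*, *SIG4* and *SIG5*), against 14.4% of all tested rows. In Col it was called for 4 (*SIG1*, *SIG3*, *SIG4* and *SIG5*), against 11.8%. *SIG5*, in *rve8-1* from 72 h to 116 h, lay at 7.13, 7.28, 6.61, 5.68, 5.06, 6.10, 6.87, 7.2, 6.65, 5.96, 5.37 and 5.77. In Col it lay at 7.44, 6.59, 5.44, 5.37, 6.23, 6.89, 7.0, 6.48, 5.69, 6.0, 6.86 and 7.18. Its lowest harvests of the 2 days were at 88 and 112 h in *rve8-1* and at 84 and 104 h in Col (adjusted p for time of day, 0.000134 in *rve8-1* and 0.000396 in Col; for the difference in time course, 0.000788). The fitted amplitude was 1.00 in *rve8-1* and 0.87 in Col, with peaks at circadian times 3.47 h and 22.0 h. Over the same arrays none of the 64 chloroplast loci was called for time of day. Their median SD within groups was 0.34, against 0.17 over all tested rows, so a change through the day was harder to call. Whether the loci follow *SIG5* was not tested.

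**Figure D5:**
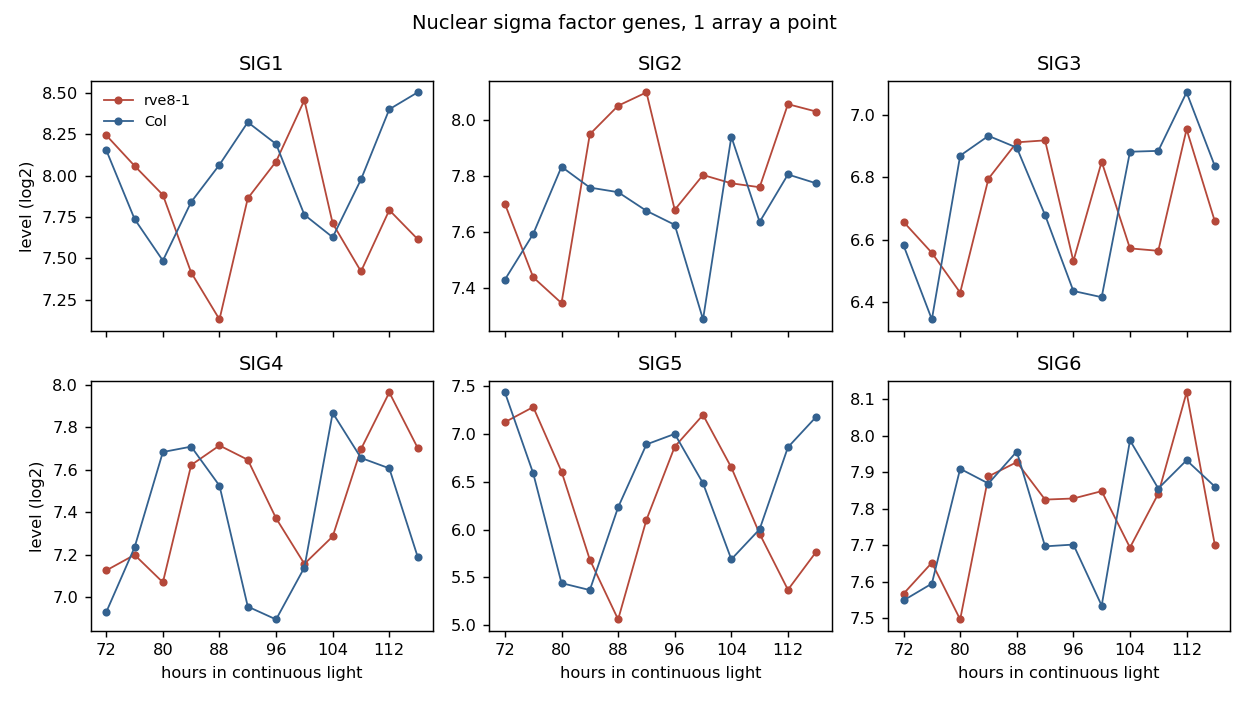
Each panel gives the log2 level of 1 nuclear sigma factor gene on every array against hours in continuous light, *rve8-1* in red and Col in blue. *SIG1*, *SIG4* and *SIG5* swing through the day in both genotypes, later in *rve8-1*.

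The other organellar genome was set beside the chloroplast. Of 33 rows of the mitochondrial genome (prefix ATMG) 17 passed the filter. Of these 17, 3 were called lower in *rve8-1* and 0 higher, against 0.657% and 0.416% of all tested rows. Their differences were below 0 for 16 of 17 (50.2% of all tested rows), with a median of -0.26. The array medians of these 17 rows lay between 4.61 and 5.30 in *rve8-1* and between 5.02 and 5.73 in Col. The *rve8-1* array of 116 h, the lowest for the chloroplast, stood at 5.02 there, within the other *rve8-1* arrays. The harvest of 100 h, at which the chloroplast median was not lower, had 16 of the 17 mitochondrial rows lower in *rve8-1*. At that harvest 44.0% of all tested rows were lower. Whether the chloroplast and mitochondrial differences differ was not tested.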

How the data were processed

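RNA of 24 harvests was labelled with the GeneChip 3′ IVT Express kit, which primes at poly(A) tails, and hybridized to AGRONOMICS1 arrays, 12 for *rve8-1* and 12 for Col. The authors masked poor probes and applied RMA with TAIR9 annotation, and the deposited values are log2 levels, used as given. Since arrays were normalized over all rows, levels are relative to the other transcripts. Scanner intensities were not used here; the number of arrays limits precision. The table held 0 columns of other samples.

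Rows over 4.5 on at least 4 arrays of either genotype entered a linear model in limma (version 3.58.1, under R 4.3.3) that held 1 mean for each genotype and circadian time, 12 residual degrees of freedom and Benjamini-Hochberg adjustment over 19473 rows. Calls use an adjusted p under 0.05, and tests are two-sided. JTK_CYCLE was rewritten in Python 3.11.15 with numpy 2.4.6 and pandas 2.3.3 (18 templates, periods of 20, 24 and 28 h, exact null with ties). Its p was adjusted over the templates and then by Benjamini-Hochberg over the rows. The code was tested on simulated data. The day numbers were given in order of harvest, and day was tried as a block only as an alternative.

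The loci and gene lists were chosen with earlier results of these data known. Named loci were to be the extremes of level and of p, up to 10 called loci for each test, the loci beside the filter and the sigma factor genes. Naming by functional class was planned but not done, because 0 of 67 ATCG identifiers matched the annotation (29715 of 30237 matched overall). Loci with differences above 0 or below -1, without overlap or marked by JTK_CYCLE were added after their values were seen. Of 8 listed sigma factor and polymerase genes, 6 matched by symbol and only those are described. No sequences were available from the tables used here.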

Additional observations from a re-analysis of the deposited data

Results flagged for a closer look

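The time of day effect differed between *rve8-1* and Col in limma's interaction test for 3 of the 6 sigma factor genes, the nuclear partners of the chloroplast RNA polymerase, where 7.11% of all tested rows were called. The adjusted p was 0.0177 for *SIG1*, 0.00483 for *SIG4* and 0.000788 for *SIG5*. *SIG4* had fitted peaks at circadian time 16.3 h in *rve8-1* and 11.2 h in Col, and *SIG1* at 2.23 h in *rve8-1* and 19.4 h in Col.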

How the results depend on the processing

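The count of 24 loci called lower in *rve8-1* (1.07% of all tested rows called in either direction) was 15 with no filter on low values (0.288% of all rows). It was 0 on day 4 alone (0.0103% of all tested rows) and 1 on day 5 alone (0.0308%), where fewer arrays entered. It lay between 23 and 30, all lower, with the filter in both genotypes, centring on the median of tested rows, another variance prior, the replicate block for day (27) or a covariate for the 25th percentile of the array. In these fits between 1.01% and 2.18% of all tested rows were called. Leaving out 1 array gave 14 to 34, with 14 without the Col array of 80 h and 15 without the *rve8-1* arrays of 100 h or 108 h. Here and below, the share of all tested rows called also changed from fit to fit, so a changed count alone shows nothing particular to the loci. Centring on the chloroplast median turned the difference of ATCG00020 to 0.181, of ATCG00490 to 0.0613 and of ATCG01020 to 0.348. ATCG00740 was at -0.136 on day 4 alone and between -0.0214 and 0.0799 with 1 array left out. The single-day and covariate fits were chosen after seeing the data.

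The same-time count of 15 was 8 with no filter, 20 with the replicate block and 8 to 31 with 1 array left out (8 without the Col array of 108 h or 116 h or the *rve8-1* array of 108 h, 9 without the Col array of 80 h or 104 h). The offset count of 0 was 10 after centring on the chloroplast median (where 63.1% of all tested rows were called), 1 with the trend and robust prior and 0 to 12 with 1 array left out. For time of day, the count in *rve8-1* was 1 with the replicate block and 0 to 12 with 1 array left out (1 without the array of 72 h or 112 h), and in Col 0 to 1 (1 without the array of 76 h or 108 h). The time course count was 0 to 6 (1 without the *rve8-1* array of 112 h). The day count was 1 with the trend and robust prior and 1 with no replicate block for time of day. JTK_CYCLE gave 1 locus in *rve8-1* and 2 in Col with p adjusted over templates only (19.6% and 21.5% of all tested rows in *rve8-1* and Col). With no filter it gave 0 of 64 in each (0.446% and 3.1% of all rows), and in the fits that called 0 rows of any kind, among them all those with an *rve8-1* array left out, the count of loci says nothing. The cause of these changes was not tested.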
